A study of Mus musculus with 12 samples.

Results

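The 9 genes Tcf21, Maf, Dcn, Lum, Ogn, Prrx1, Twist1, Twist2 and Acta2, which mark interstitial mesenchyme, were followed through pools of cells sorted from the mouse embryonic gonad. They were taken by name, with every probe set annotated to them, which gave 24 probe sets of the 44238 measured and 9 of 17996 named genes. The study read somatic support cells, isolated by flow cytometry, on Affymetrix mouse arrays and was concerned with genes of gonadal sex determination. Its 12 arrays held 3 pools each of XY cells at embryonic day 12.5 (E12.5), XX cells at E12.5, XY cells at E11.5 and XX cells at E11.5. All 4 groups came from 1 mouse strain on an FVB.Cg background that carries the tyrosinase transgene Tg(Tyr)3412ARpw and the EGFP transgene Tg(Sry-EGFP)92EI, named for Sry, so XX and XY cells share both. Nothing in the labels ties a pool to a litter or a sort of its own, so a p-value here reflects only how these pools vary, which can include technical variation. Values are log2 signals of a probe set, and they are compared between arrays and never between probe sets.

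The developing gonad holds supporting cells, which become Sertoli cells in the testis and granulosa cells in the ovary, and between and beneath them an interstitium of mesenchymal cells, vessels and macrophages. Mesenchymal cells of this kind are known by transcription factors such as Tcf21, Maf, Prrx1 and the Twist proteins, by secreted small leucine-rich proteoglycans such as decorin, lumican and osteoglycin, and, in contractile cells, by smooth muscle actin. The labels name the sorted cells as somatic support cells, and such cells are not known as the main source of these transcripts.

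XX E11.5 pool 2 stood apart from the other arrays. It gave the lowest signal of the 12 arrays for Gata4, Nr5a1 and Wt1, regulators of the supporting lineage, with 8.60, 10.42 and 11.53 against 9.36 to 10.57, 10.78 to 12.30 and 11.65 to 12.73 on the other 11. Those 3 genes were nevertheless well above the non-target range on every array, which 5 Y-linked probe sets in XX pools put at 3.33 to 5.17. The 14 endothelial markers all lay above their own 12-array means in XX E11.5 pool 2, and their mean level was 8.57 there, against 6.35 to 7.13 on the other 11 arrays. Cdh5, the cadherin of endothelial junctions, read 8.81 in that pool, while the other endothelial marker Pecam1 read 5.39, near the non-target range. The 12 macrophage markers had a mean level of 7.63 there, against 5.98 to 7.5 elsewhere, and the 8 germ cell markers had their lowest mean level, 5.14. Other single markers, apart from Pou5f1, were less extreme there. Counted from the highest of 12 arrays, this pool ranked 8 for Sox9 and 10 for Foxl2, both of the supporting lineage. It ranked 2 for Csf1r and 5 for C1qa, both of macrophages, and 5 for the fetal Leydig marker Cyp11a1. Of the germ cell markers, Pou5f1 ranked 12 and Dazl 11. Array medians ran from 6.494 to 6.592. The Y-linked gene Eif2s3y, at 10.85 to 11.36 in XY pools and 3.68 to 4.0 in XX pools, matched the labelled sex of all 12. Results that use this pool are given with and without it.

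Of the 9 genes, 6 had their highest brightest-probe-set signal of all 12 arrays in XX E11.5 pool 2, namely Tcf21, Dcn, Lum, Prrx1, Twist1 and Twist2, where 9.64% of all genes did. Acta2 instead was 12.5-fold lower in XY than in XX cells at E12.5, and at that day it was the 1 of 24 member probe sets that passed the test (limma, adjusted p under 0.05 over all probe sets), where 7.72% of all probe sets passed. At E11.5 the test passed 0 of 24 member probe sets, where 0.0678% of all passed. In pooled cells, fewer cells of a type and less RNA per cell cannot be told apart.

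**Figure D1:**
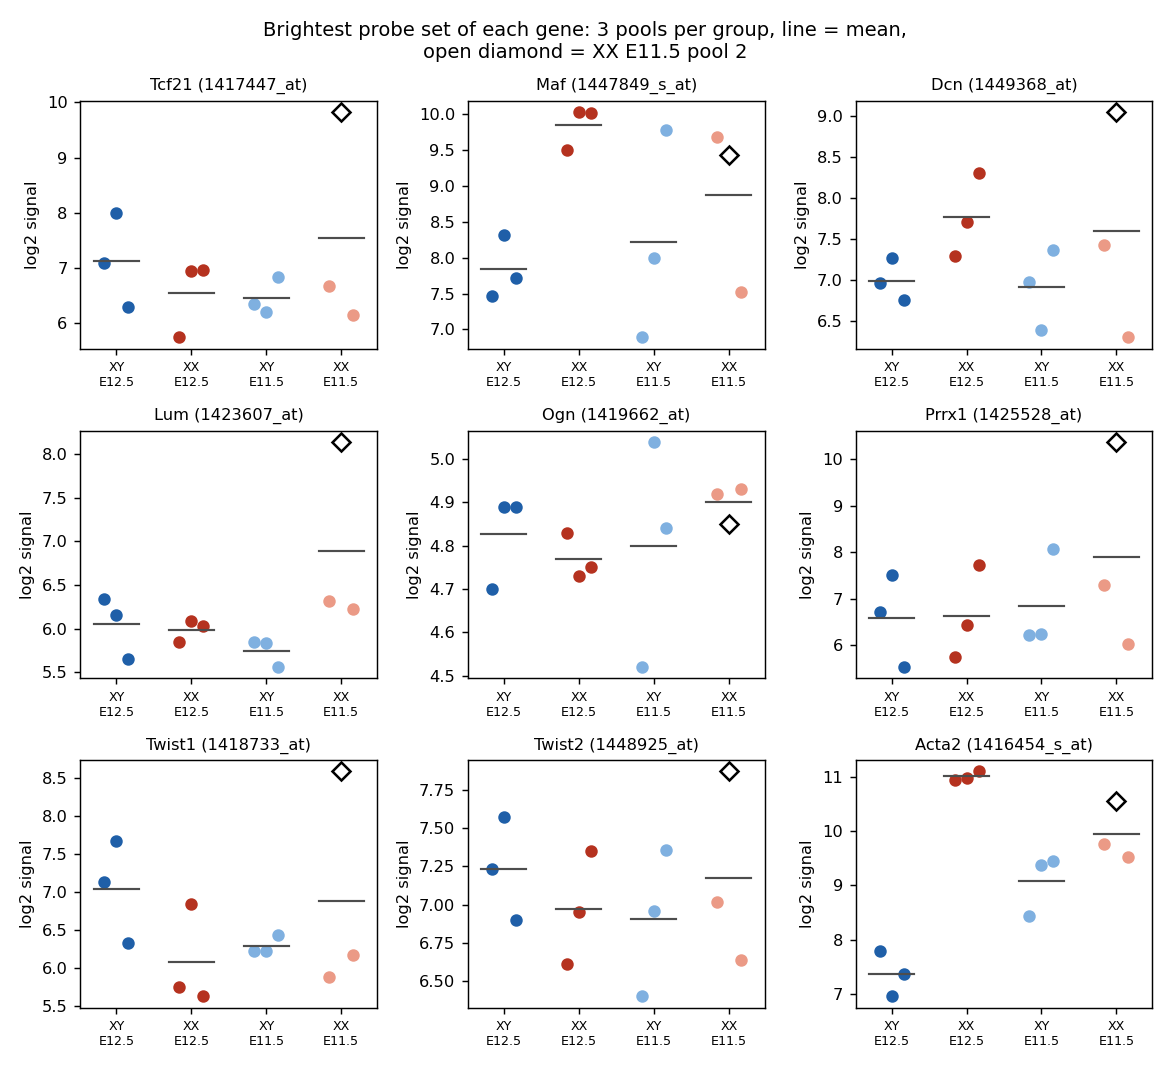
Log2 signal (vertical axes, each with its own scale) of the brightest probe set of each of the 9 genes in 3 pools per group, with the group mean as a line. The open diamond, XX E11.5 pool 2, is the highest point for Tcf21, Dcn, Lum, Prrx1, Twist1 and Twist2, while for Acta2 the XY E12.5 pools, at 6.95 to 7.79, lie under all other pools.

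The height of that pool was measured against its own group. It exceeded the mean of XX E11.5 pools 1 and 3 by over 1 log2 unit at 10 of 24 member probe sets, where 5.25% of all probe sets did so. At the brightest probe sets the excess passed 1 in 6 of 9 genes, with a median of 1.87, against a median of -0.05 over all genes. Against the highest of the other 11 arrays, the excess passed 1 at 4 of 24 member probe sets and in 3 of 9 genes, where 1.13% of all probe sets did. These 4 probe sets were Tcf21 1417447_at, Lum 1423607_at and the Prrx1 pair 1425528_at and 1439774_at, with excesses of 1.82, 1.80, 2.31 and 3.21. The mean deviation of the 9 genes from their 12-array means was 1.64 in this pool and -0.72 to 0.44 in the other 11. The deviation of the 8 genes other than Acta2 was 1.69 there, close to the 1.72 of the endothelial markers. A list of other interstitial regulators deviated by 1.11 there, against -0.52 to 0.22 on the other 11 arrays. XX E11.5 pool 2 was the highest array for 8 of those 16 genes, where it was for 9.64% of all genes. The supporting lineage markers deviated by -1.01 in this pool. Those markers were also low in XX E11.5 pools 1 and 3, at -0.72 and -0.60, and lay at -0.05 to 0.64 in the other groups. Their list includes genes that differ by sex, such as Sox9 and Fgf9, which passed the test as higher in XY at E11.5. Their median deviation was -1.12 in XX E11.5 pool 2 and -0.42 and -0.27 in pools 1 and 3. In the other groups that median was -0.24 to 0.44. The part of other cell types in the members' excess was not tested.

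**Figure D2:**
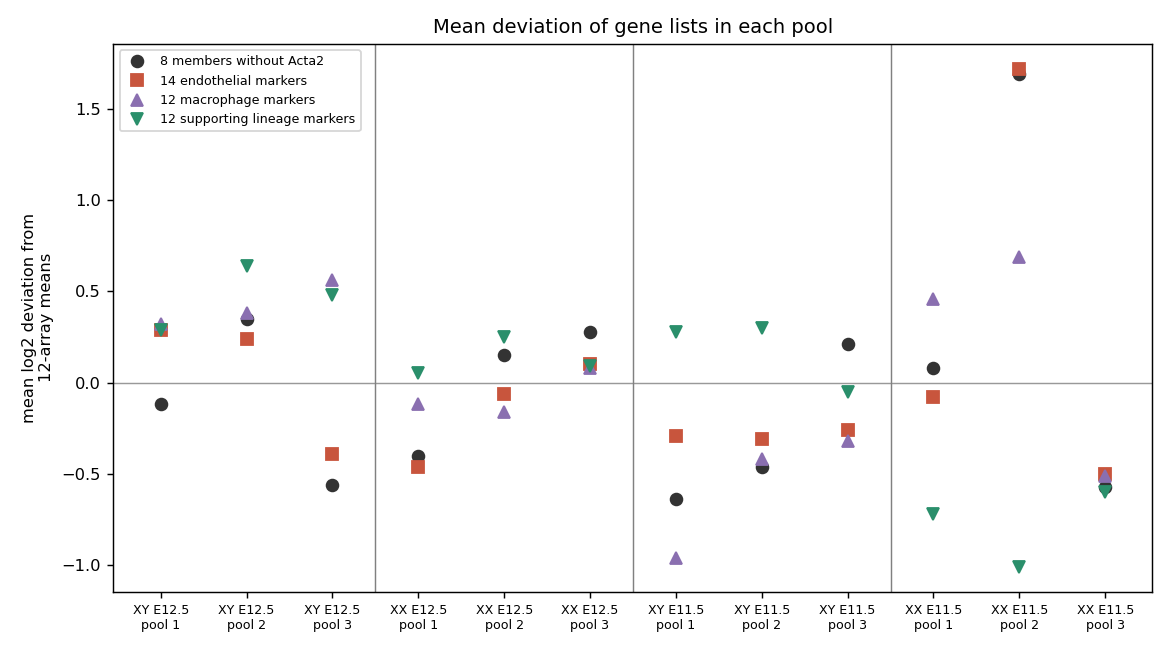
Mean log2 deviation from the 12-array means (vertical axis) for 8 members without Acta2, 14 endothelial, 12 macrophage and 12 supporting lineage markers in each of the 12 pools (horizontal axis). In XX E11.5 pool 2 the members and endothelial markers lie at 1.69 and 1.72. The supporting lineage markers lie at -1.01 there and at -0.72 and -0.60 in XX E11.5 pools 1 and 3.

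The same measure was taken in the 9 pools of the other groups, each against the other pools of its group. The median excess of the 9 genes there ran from -0.51 to 0.56, with the top values in XY E12.5 pool 2 (0.50) and XY E11.5 pool 3 (0.56). The mean deviation of the 9 genes from the 12-array means was 0.05 and 0.20 in these pools, under the 0.44 of XX E12.5 pool 3. That order depended on Acta2. Over the 8 genes other than Acta2 the mean deviation was 0.35 in XY E12.5 pool 2 and 0.21 in XY E11.5 pool 3, against 0.28 in XX E12.5 pool 3. XY E11.5 pool 3 exceeded the mean of its pools 1 and 2 by over 1 at 3 of 24 member probe sets, where 4.32% of all probe sets did so. XY E12.5 pool 2 exceeded the mean of XY E12.5 pools 1 and 3 by over 1 at 4 of 24 member probe sets, where 2.65% of all probe sets did. In 2 of 9 genes the brightest probe set did so, Tcf21 by 1.32 and Prrx1 by 1.39. The other 2 probe sets were Ogn 1419663_at, by 3.33, and Maf 1444073_at, by 2.38. The mean level of the endothelial markers in this pool, 7.09, was close to the 7.13 of XY E12.5 pool 1.

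**Figure D3:**
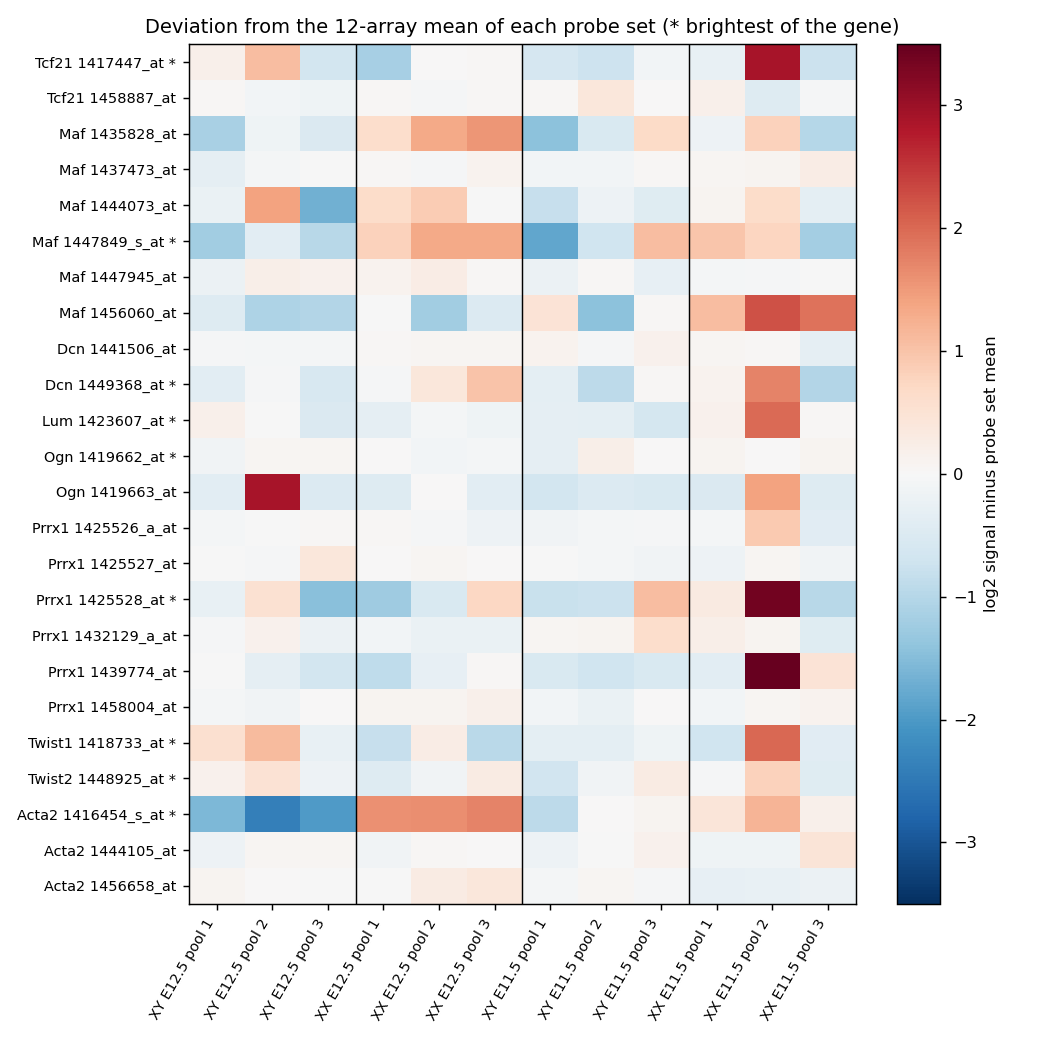
Deviation of each of the 24 member probe sets (rows, brightest of a gene starred) from its own mean over the 12 arrays (columns), in log2 units from blue (lower) to red (higher), with values past either end of the scale in its end colour. The column of XX E11.5 pool 2 is red in most genes, Ogn 1419663_at is also red in XY E12.5 pool 2, and the 3 XY E12.5 columns are blue for Acta2 1416454_s_at.

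Not every probe set reported its gene. Over the 12 arrays, 9 of 24 had a range under 1 and 3 had all values at or under 5.17, so they carry little information about their gene. XX E11.5 pool 2 was the highest array at 9 of the 24, and no other array was the highest at more than 4. The flat ones included Tcf21 1458887_at, Maf 1437473_at and 1447945_at, Dcn 1441506_at, Ogn 1419662_at, Prrx1 1425527_at and 1458004_at, and Acta2 1444105_at and 1456658_at.

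Tcf21, a basic helix-loop-helix (bHLH) transcription factor of visceral mesenchyme whose loss disturbs gonadal development in mice, read 7.09, 8.0 and 6.29 in XY E12.5 pools 1, 2 and 3 at 1417447_at, against 5.75, 6.95 and 6.97 in XX E12.5. At E11.5 it read 6.35, 6.21 and 6.84 in XY pools, against 6.67, 9.82 and 6.16 in XX pools. The groups overlapped in every comparison, and the value of 9.82 was the only one above 8.0. Its XY minus XX difference at E11.5 was -1.09 ± 0.84 (SE; limma, adjusted p = 0.80) and was 0.05 without XX E11.5 pool 2. The second probe set stayed between 4.87 and 5.72.

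Prrx1, a homeobox factor of limb and craniofacial mesenchyme, showed the widest spread, 4.84 log2 units at 1425528_at. This probe set read 6.72, 7.51 and 5.53 in XY E12.5 pools, against 5.74, 6.44 and 7.72 in XX E12.5 pools. At E11.5 the values were 6.21, 6.23 and 8.06 in XY pools, against 7.29, 10.37 and 6.02 in XX pools. Within each group Prrx1 ranged more widely than the group means differed, and the SD between pools was 1.00 to 2.24 in the 4 groups. A second probe set, 1439774_at, gave 8.68 in XX E11.5 pool 2 and 4.07 to 5.46 on the other 11 arrays. Another, 1425526_a_at, gave 6.73 there and 5.43 to 5.85 elsewhere, so 3 of the 6 Prrx1 probe sets peaked in that pool, by 0.88 to 3.21 above the next array.

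Twist1 and Twist2 are bHLH factors that act in mesenchyme and in epithelial-to-mesenchymal transition. Twist1 1418733_at read 7.14, 7.68 and 6.33 in XY E12.5 pools, against 5.76, 6.85 and 5.63 in XX E12.5 pools. At E11.5 it read 6.23, 6.23 and 6.44 in XY pools, against 5.88, 8.59 and 6.18 in XX pools. The 3 XY E11.5 pools lay within 0.21 of each other, between the XX pools. The XY minus XX difference at E12.5 was 0.97 ± 0.65 (SE; limma, adjusted p = 0.48), and the 2 groups overlapped. Twist2 1448925_at had a narrow range, 6.40 to 7.87, with XX E11.5 pool 2 at the top and XY E12.5 pool 2 next at 7.57.

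Maf, the large Maf bZIP factor known in mouse gonads from interstitial cells, did not follow the pattern of the other transcription factors, and its 6 probe sets disagreed. The brightest, 1447849_s_at, read 7.47, 8.32 and 7.72 in XY E12.5 pools, against 9.51, 10.03 and 10.02 in XX E12.5 pools. These groups did not overlap, but the difference of -2.02 ± 0.71 (SE) missed the threshold (limma, adjusted p = 0.13). It passed only with array quality weights (adjusted p = 0.034) and in a fit to those 6 arrays alone (adjusted p = 0.0082), out of 17 alternatives whose adjusted p ran up to 0.31. At E11.5 the same probe set ranged from 6.89 to 9.78 in XY pools, against 7.52 to 9.68 in XX pools, so the sexes overlapped. A second probe set, 1435828_at, also kept the sexes apart at E12.5, with 5.86, 6.86 and 6.48 in XY pools, against 7.61, 8.32 and 8.54 in XX pools (difference -1.76 ± 0.57, SE; limma, adjusted p = 0.10).

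The probe set Maf 1456060_at ordered the groups differently. It read 8.59, 7.38 and 8.12 in XX E12.5 pools, against 9.67, 10.82 and 10.50 in XX E11.5 pools. The fall in XX, by 2.30 ± 0.50 (SE), passed the threshold (limma, adjusted p = 0.042), the 1 of 24 member probe sets called for day in XX, where 3.11% of all were, but the difference was -2.05 without XX E11.5 pool 2 (adjusted p = 0.11). The call held in 7 of 17 alternatives, with adjusted p from 0.018 to 0.15. In XY cells the values were 8.15, 7.52 and 7.57 at E12.5, against 9.08, 7.15 and 8.63 at E11.5, and the groups overlapped. No direction for Maf as a gene is drawn, because its probe sets gave opposite signs between E12.5 and E11.5 in XX.

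Decorin (Dcn), lumican (Lum) and osteoglycin (Ogn) are small leucine-rich proteoglycans of the collagenous matrix, where they bind collagen fibrils. Dcn 1449368_at read 6.96, 7.27 and 6.75 in XY E12.5 pools, against 7.29, 7.71 and 8.31 in XX E12.5 pools. All 3 XX pools at E12.5 were higher than the 3 XY pools, by as little as 0.02, and the difference of -0.78 ± 0.58 (SE) did not pass (limma, adjusted p = 0.54). At E11.5 Dcn read 6.98, 6.39 and 7.37 in XY pools, against 7.43, 9.05 and 6.30 in XX pools. The XY minus XX difference at E11.5 was -0.68 ± 0.58 with all pools and 0.05 ± 0.42 (SE) without XX E11.5 pool 2.

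Lum 1423607_at read 6.34, 6.15 and 5.65 in XY E12.5 pools, against 5.84, 6.09 and 6.03 in XX E12.5 pools. At E11.5 it read 5.85, 5.83 and 5.56 in XY pools, against 6.31, 8.14 and 6.22 in XX pools. The 3 XY pools lay under the 3 XX pools at E11.5, with or without pool 2. The difference was -1.14 ± 0.43 (SE) and was -0.52 ± 0.20 without that pool, and neither passed the adjusted threshold (limma, adjusted p = 0.68 and 0.95). Outside XX E11.5 pool 2 no array exceeded 6.34.

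Ogn was measured by 1 flat probe set, 1419662_at, at 4.52 to 5.04, and by 1419663_at, which was high in 2 pools. The second probe set gave 7.53 in XY E12.5 pool 2 and 6.03 in XX E11.5 pool 2, and 3.99 to 4.64 on the remaining 10 arrays, within the non-target range. No group mean of Ogn can be read apart from those pools: the XY E12.5 SD was 1.93 and the XX E11.5 SD 1.09, against 0.09 in XY E11.5 and 0.24 in XX E12.5. Ogn and its neighbours in the RefSeq annotation of assembly GRCm38.p6, Ecm2, Aspn and Omd on chromosome 13, are all small leucine-rich proteoglycan or matrix genes. Aspn and Omd stayed at or under 4.28 at each of their probe sets on all 12 arrays, and Ecm2 read 3.62 to 4.87 at 1440096_at, highest in XY E12.5 pool 2, and 4.69 to 5.43 at 1431324_at, highest in XY E12.5 pool 3, all in or near the non-target range.

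Dcn and Lum also sit in a row of such genes, with Kera and Epyc next to them on chromosome 10. Kera, keratocan, read 4.52 to 5.71. Epyc, epiphycan, behaved unlike its neighbours: it read 8.55, 8.68 and 8.93 in XY E12.5 pools, against 3.82, 4.30 and 3.88 in XX E12.5 pools, and it lay at 3.94 to 4.40 in all 6 E11.5 pools. Its lower group lies in the non-target range, so the difference of 4.72 ± 0.17 (SE) is a lower bound, at least 26.4-fold (limma, adjusted p = 5.5e-07). Epyc was the only gene of the 8 other small leucine-rich proteoglycans that passed at E12.5, at 1 of 17 probe sets, where 7.72% of all passed. It also rose in XY at E12.5 relative to E11.5, by 4.65 ± 0.17 (SE; limma, adjusted p = 8e-07), again from the non-target range.

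Acta2 encodes smooth muscle alpha actin, the actin of contractile and perivascular cells. Its probe set 1416454_s_at read 7.79, 6.95 and 7.37 in XY E12.5 pools, against 10.95, 10.98 and 11.10 in XX E12.5 pools. At E11.5 it read 8.43, 9.37 and 9.45 in XY pools, against 9.77, 10.55 and 9.52 in XX pools. The XY E12.5 pools were thus the 3 lowest of the 12 and the XX E12.5 pools the 3 highest. At E12.5 the XY minus XX difference was -3.64 ± 0.33 (SE), 12.5-fold with a 95% interval of 7.45 to 20.9 (limma, adjusted p = 0.00015). Over 17 alternatives it ran from -3.85 to -3.43 with adjusted p of 2.3e-05 to 0.0014. The mean level of endothelial markers was 6.46 to 7.13 in XY E12.5 pools and 6.38 to 6.94 in XX E12.5 pools, that of macrophage markers 7.26 to 7.5 and 6.79 to 7.02, and that of mesonephric and epithelial markers 6.12 to 6.72 and 6.51 to 7.32. Their part in the Acta2 difference was not tested.

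In XY cells at E12.5 relative to E11.5, Acta2 fell by 1.72 ± 0.33 (SE; limma, adjusted p = 0.015), the 1 of 24 member probe sets called, where 6.16% of all were. This call ended without XY E11.5 pool 3 (-1.53, adjusted p = 0.063), without XY E12.5 pool 2 (-1.51, adjusted p = 0.056), without XY E12.5 pool 3 (-1.72, adjusted p = 0.053) and in a fit to the XY arrays alone (adjusted p = 0.059). In XX cells it read higher at E12.5 by 1.06 ± 0.33 (SE), which did not pass (limma, adjusted p = 0.10). The difference between the sex differences of the 2 days, -2.78 ± 0.47 (SE), passed (limma, adjusted p = 0.018), the 1 of 24 called, where 1.75% of all were. It was -3.08 without XX E11.5 pool 2 (adjusted p = 0.011), and the call ended without XY E11.5 pool 2 (adjusted p = 0.053) and without XX E12.5 pool 3 (adjusted p = 0.056). The suffix _s_at of this probe set marks probes that can match several related transcripts, so other actins may add to it. Actg2, the gene of gamma smooth muscle actin, read 4.24 to 5.33 at its own probe set.

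The promoters of Acta2 and of Myl9, a second contractile gene that fell with it, are shown because smooth muscle genes are known targets of serum response factor, which binds CArG boxes. Both come from RefSeq, assembly GRCm38.p6, from 250 bases before to 50 bases after the gene's start. Capitals mark CArG-like words, searched as CC and GG around 6 bases of which at least 5 are A or T. The search pattern, though not each word, is the same on both strands. The Acta2 window is chr19:34255324-34255623 on the minus strand and the Myl9 window chr2:156775214-156775513 on the plus strand.
Acta2: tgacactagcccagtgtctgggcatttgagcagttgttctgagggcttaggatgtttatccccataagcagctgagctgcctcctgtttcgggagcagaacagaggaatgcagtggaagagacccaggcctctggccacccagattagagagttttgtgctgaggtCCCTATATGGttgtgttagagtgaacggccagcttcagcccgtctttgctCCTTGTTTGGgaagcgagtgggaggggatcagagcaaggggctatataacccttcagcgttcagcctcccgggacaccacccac
Myl9: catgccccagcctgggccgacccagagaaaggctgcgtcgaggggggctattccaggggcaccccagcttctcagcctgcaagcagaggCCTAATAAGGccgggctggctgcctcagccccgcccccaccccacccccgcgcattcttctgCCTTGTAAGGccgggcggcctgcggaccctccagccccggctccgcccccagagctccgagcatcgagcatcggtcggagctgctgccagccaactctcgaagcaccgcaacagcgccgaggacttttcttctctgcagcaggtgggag
Acta2 holds 2 CArG-like words, starting 84 and 34 bases before the gene's start, and Myl9 holds 2, starting 161 and 99 bases before it. Each window searched for 2 other contractile genes, Cald1, which also fell in XY between days, and Cnn1, holds 0 and is not shown. Of 32851 promoters of this length, 9.98% hold such a word and 1.63% one with all 6 inner bases A or T, as the first Myl9 word has. E-boxes, CANNTG, the sites of bHLH factors, occur in 72.3% of promoters. Ogn has 4 in its window, Acta2 has 3, and the windows of Tcf21, Prrx1, Twist1 and Twist2 have 0. A match is a description of these letters and not of binding.

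The wider smooth muscle and pericyte list, which was chosen with earlier results of these data known, split in direction between XY and XX at E12.5. Of its 34 probe sets, 3 were called higher and 2 lower in XY, which is 14.7% of the list, where 7.72% of all probe sets were called in either direction. Myl9, the regulatory myosin light chain, read 7.63, 8.17 and 8.10 in XY E12.5 pools, against 11.45, 12.23 and 12.15 in XX E12.5 pools. Myh11, the smooth muscle myosin heavy chain, read 5.77, 6.19 and 6.48 in XY pools, against 8.76, 9.51 and 9.41 in XX pools. Both fell with Acta2 in XY, with XY minus XX differences of -3.98 ± 0.38 and -3.08 ± 0.45 (SE; limma, adjusted p = 0.00019 and 0.0026).

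Mylk, the myosin light chain kinase, and Mcam, an adhesion molecule of pericytes and endothelium, went the other way. Mylk read at least 11.42 at 1425506_at in each of the XY E12.5 pools, against 9.27, 9.74 and 9.09 in XX E12.5 pools. Its other probe set, 1425504_at, did not pass in any comparison with all pools. Mcam read 8.30, 8.04 and 8.61 in XY pools, against 5.60, 5.63 and 5.59 in XX pools. The differences were 2.31 ± 0.33 and 2.71 ± 0.24 (SE; limma, adjusted p = 0.0023 and 0.00011). Tagln and Des, further contractile genes, had no called probe set in any comparison and read 6.32 to 7.67 and 6.35 to 6.86 over the 12 arrays at their brightest probe sets, while Cnn1, at 4.48 to 4.91, lay within the non-target range. Without XX E11.5 pool 2, 4 probe sets were called higher and 2 lower, where 8.51% of all were called.

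**Figure D4:**
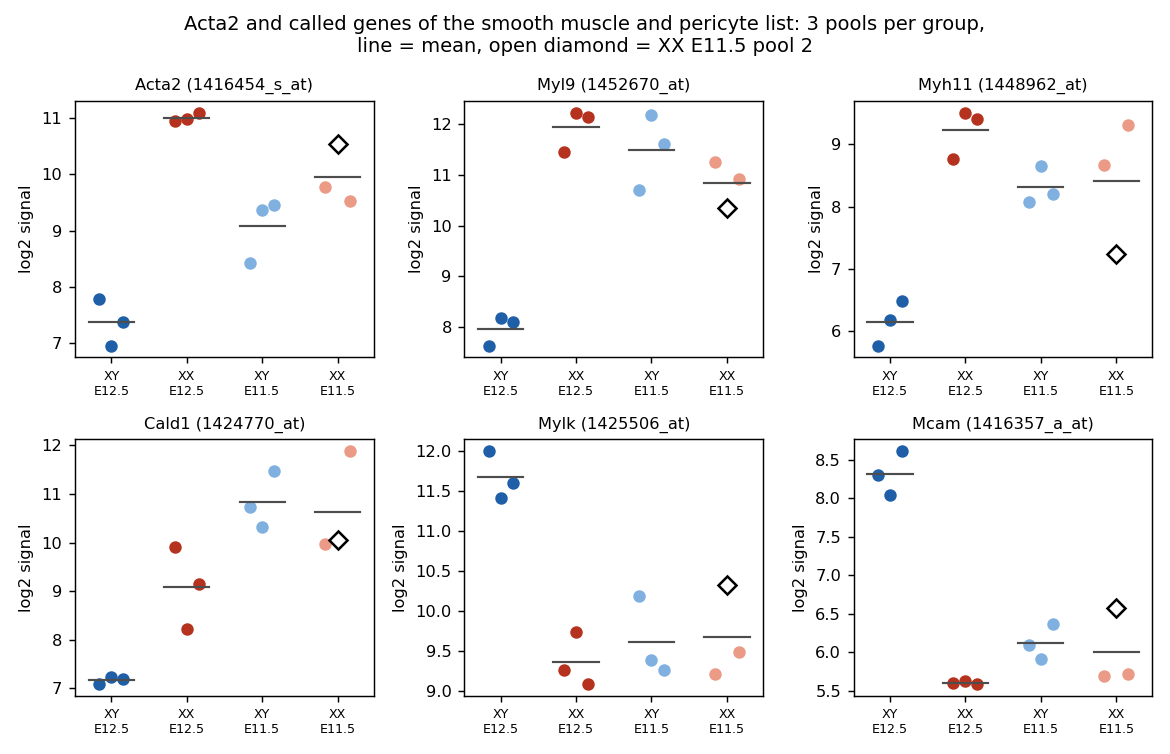
Log2 signal (vertical axes, each with its own scale) of Acta2 and 5 called genes of the smooth muscle and pericyte list in 3 pools per group, with the group mean as a line and XX E11.5 pool 2 as an open diamond. In XY E12.5 pools Acta2, Myl9, Myh11 and Cald1 have their lowest signals and Mylk and Mcam their highest.

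At E12.5 relative to E11.5 in XY cells, 2 probe sets of this list were called higher and 6 lower, which is 23.5% of the list, where 6.16% of all were called. Cald1, caldesmon, an actin-binding regulator of contraction, read 7.09, 7.23 and 7.19 in XY E12.5 pools at 1424770_at, against 10.74, 10.32 and 11.47 in XY E11.5 pools, a fall by 3.68 ± 0.55 (SE; limma, adjusted p = 0.0042). Myl9 fell by 3.54 ± 0.38 (SE; limma, adjusted p = 0.00063) between the same groups. Mcam and Mylk rose by 2.19 ± 0.24 and 2.06 ± 0.33 (SE; limma, adjusted p = 0.00067 and 0.0064). Tpm1, a tropomyosin gene, fell by 1.89 ± 0.43 (SE) at 1456623_at (limma, adjusted p = 0.030), while its other probe sets did not pass. Without XX E11.5 pool 2, 3 probe sets of the list were called higher and 6 lower, where 6.96% of all were called, and the members' call stayed that of Acta2. In XX cells 0 of the 34 probe sets of this list were called (limma), and 7 had an unadjusted p under 0.05. At that unadjusted threshold 4 of 24 member probe sets differed between days in XX, where 9819 of all 44238 did. The 1 past the adjusted threshold was Maf 1456060_at. Without XX E11.5 pool 2, 0 of 24 passed the adjusted threshold (limma), where 1.34% of all probe sets did. Then 4 had an unadjusted p under 0.05, where 8018 of all 44238 did.

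XY cells were also set against XX cells at E11.5. Of the 24 member probe sets 0 were called (limma), and 4 had an unadjusted p under 0.05, where 3012 of all 44238 did. All 9 genes nonetheless had a lower mean in XY than in XX at their brightest probe set. For Ogn that probe set was flat and differed by only -0.10 ± 0.13 (SE), so its sign carries little information. The median difference was -0.68, against 0.04 over all genes. Without XX E11.5 pool 2 the median was 0.05, with 5 genes above 0 and 4 below. Again 0 of 24 were called, where 0.061% of all probe sets were. At an unadjusted p under 0.05 (limma) there were 2, where 2062 of all 44238 passed. The direction of the 9 genes at E11.5 thus depended on 1 of 6 pools. Endothelial markers were lower in XY in 14 of 14 genes with all pools and in 8 of 14 without it, macrophage markers in 12 of 12 and 11 of 12, and interstitial regulators in 13 of 16 and 11 of 16.

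**Figure D5:**
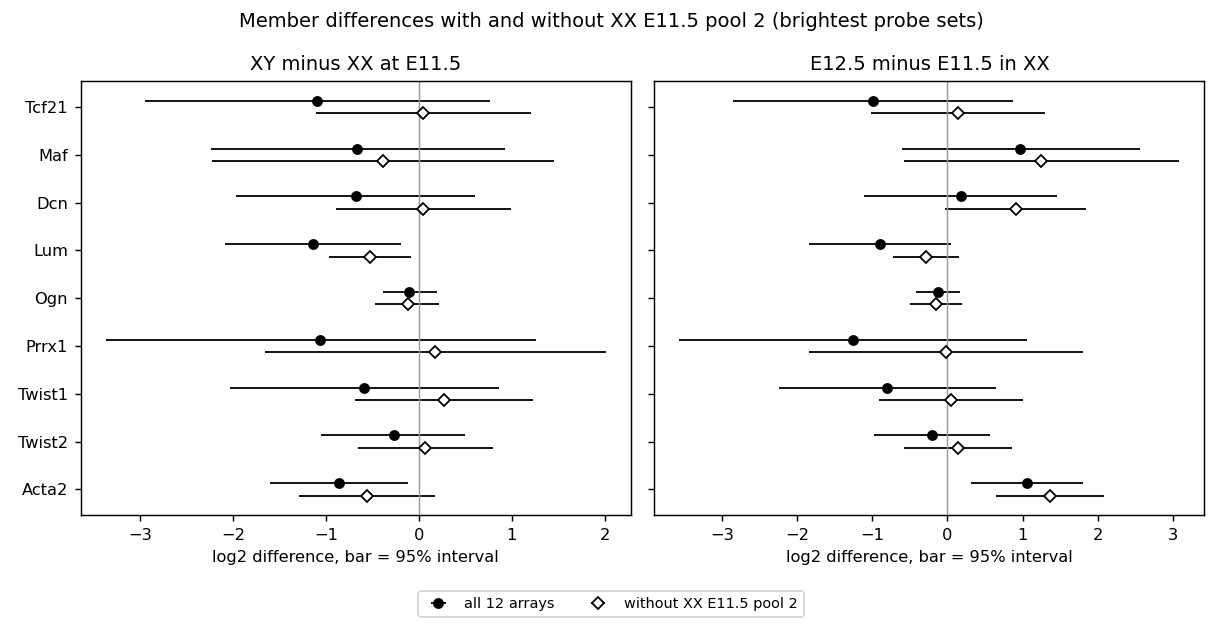
Log2 difference with its 95% interval from limma (horizontal axes) for the brightest probe set of each gene (vertical axis), XY minus XX at E11.5 on the left and E12.5 minus E11.5 in XX on the right. Filled circles use all 12 arrays and open diamonds leave out XX E11.5 pool 2, which moves Tcf21 at E11.5 to 0.05, against -1.09 with all arrays.

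The members' medians for the other comparisons were as follows. The median XY minus XX difference at E12.5 was 0.06, against -0.00 over all genes, with 5 genes above 0 and 4 below, and 1 of 24 probe sets was called. The median E12.5 minus E11.5 difference was -0.20 in XX, against 0.12 over all genes, and 0.14, against 0.11, without XX E11.5 pool 2. In XY it was 0.08, against 0.06 over all genes. The difference between the sex differences had a median of 0.53, against -0.06 over all genes, with all pools and of 0.18, against -0.04, without XX E11.5 pool 2. The Acta2 probe set was the 1 of 24 called both times, where 1.35% of all were called without that pool.

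Other regulators of interstitial cells were read from a list of 19 genes, of which 16 had a probe set of their own. At E12.5, 2 of their 42 probe sets were called higher and 3 lower in XY, which is 11.9%, where 7.72% of all were called. Prrx2, the paralogue of Prrx1, read 6.54, 7.34 and 7.28 in XY E12.5 pools, against 9.57, 9.64 and 10.23 in XX E12.5 pools (difference -2.76 ± 0.30, SE; limma, adjusted p = 0.00039). Ptch1, the hedgehog receptor and hedgehog target, went the other way and read 13.09, 12.69 and 12.77 in XY pools at 1428853_at, against 10.54, 10.80 and 10.70 in XX pools (difference 2.17 ± 0.30, SE; limma, adjusted p = 0.0017). The other Ptch1 probe sets did not pass in any comparison with all pools. Prrx2 rose by 2.07 ± 0.30 (SE) in XX at E12.5 relative to E11.5 (limma, adjusted p = 0.011), and Prrx1 did not pass in any comparison.

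Gli3, a transcription factor of the hedgehog pathway, read 7.82, 8.11 and 7.88 in XY E12.5 pools at 1456067_at, against 9.04, 9.01 and 9.37 in XX E12.5 pools (difference -1.20 ± 0.22, SE; limma, adjusted p = 0.0085), but its brightest probe set, 1455154_at, differed by 0.08 and did not pass. Pdgfra, a receptor of interstitial progenitors, read 11.62, 11.52 and 11.02 in XY E12.5 pools at 1421917_at, against 9.16, 9.98 and 9.46 in XX E12.5 pools (limma, adjusted p = 0.022). Its other probe sets did not pass at E12.5. Nr2f2, an orphan nuclear receptor of interstitial cells, read 7.07, 7.33 and 7.19 in XY E12.5 pools at 1416159_at, against at least 8.77 in each of the XY E11.5 pools, a fall by 2.20 ± 0.38 (SE; limma, adjusted p = 0.0090), and at 1444229_at it fell by 4.45 ± 0.63 (SE; limma, adjusted p = 0.0032). Nr2f2 also fell in XX, by 1.69 ± 0.38 at 1416159_at (SE; limma, adjusted p = 0.045), a call that ended without XX E11.5 pool 2 (adjusted p = 0.11). Pdgfra 1421917_at and Zeb2 1422748_at likewise fell in XX, by 2.0 and 2.47 (limma, adjusted p = 0.035 and 0.042), and did not pass without that pool (adjusted p = 0.09 and 0.10). Between days, the other probe sets of Nr2f2 did not pass in XX or XY, nor those of Pdgfra and Zeb2 in XX. Of this list, 3 probe sets were called lower and 1 higher in XX between days with all pools, which is 9.52%, where 3.11% of all were called. Without that pool 0 were called lower and 1 higher. In XY 1 was called higher between days, Ptch1, and 6 lower, among them Meis1, a homeobox factor, and Gli3, which is 16.7%, where 6.16% of all were called.

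The fibrous matrix list had 15 measured genes of 20 and 27 probe sets, of which 2 were called higher and 5 lower in XY at E12.5, which is 25.9%, where 7.72% of all were called. Col6a1 and Col6a2, collagen VI chains, and Mgp, matrix Gla protein, were lower in XY. Col6a2 1452250_a_at read 9.51, 9.64 and 8.91 in XY E12.5 pools, against 11.61, 11.53 and 11.99 in XX E12.5 pools (difference -2.36 ± 0.25, SE; limma, adjusted p = 0.00032). Vcan, the large proteoglycan versican, was higher at 1427257_at, with 9.31, 8.94 and 9.91 in XY pools, against 6.30, 6.52 and 7.23 in XX pools (difference 2.70 ± 0.47, SE; limma, adjusted p = 0.0061). The other Vcan probe sets did not pass in any comparison with all pools. At E12.5 relative to E11.5, 5 probe sets of the list were called higher and 0 lower in XX, which is 18.5%, where 3.11% of all were called. They belonged to Col6a2, Col6a1, Mgp and Thbs2, a thrombospondin, and 4 were called without XX E11.5 pool 2, all but that of Thbs2 (adjusted p = 0.088). In XY Vcan 1427257_at was the 1 of 27 probe sets called between days, where 6.16% of all were. It was higher at E12.5 by 2.94 ± 0.47 (SE; limma, adjusted p = 0.0057). XX E11.5 pool 2 was the highest array for 6 of the 15 genes, where it was for 9.64% of all genes, and the list's mean deviation was 0.51 there, against 0.66 in XX E12.5 pool 3. Of the smooth muscle and pericyte list, 9 of 17 genes lay above their own mean in XX E11.5 pool 2, with a median deviation of 0.07. Its mean deviation was 0.31 there, the highest of the 12 arrays, against 0.25 in XY E11.5 pool 3. XX E11.5 pool 2 was the highest array for 4 of these 17 genes and the lowest for 3.

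Partners of the members' protein families were read from a further pair of lists. The bHLH partners and Id inhibitors, which pair with or block Tcf21 and Twist proteins, had 0 of 21 probe sets called in each of the 5 comparisons with all pools (limma). In each, 1 to 5 had an unadjusted p under 0.05, where 3012 to 9819 of all 44238 did. Without XX E11.5 pool 2, 1 of 21 was called between days in XY, where 6.96% of all were. The mean deviation of this list was 0.59 in XX E11.5 pool 2, close to the 0.53 of XX E12.5 pool 2. Of 11 probe sets of the Maf family and partners, 2 were called at E12.5, both higher in XY, which is 18.2%, where 7.72% of all were called. Mafk, a small Maf protein, read 10.47, 10.37 and 10.48 in XY E12.5 pools, against 9.42, 9.09 and 8.86 in XX E12.5 pools (difference 1.31 ± 0.19, SE; limma, adjusted p = 0.0026). Maff read 9.39, 8.77 and 9.18 in XY pools, against 8.11, 6.64 and 6.82 in XX pools (limma, adjusted p = 0.020). Between days in XY, Mafk rose by 1.22 ± 0.19 and Bach1, a partner of small Maf proteins, fell by 1.54 ± 0.39 at 1449311_at (SE; limma, adjusted p = 0.0057 and 0.046). These were 2 of 11 probe sets, where 6.16% of all were called. Without XX E11.5 pool 2 the list had 1 of 11 called between days in XY, where 6.96% of all were.

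The genes whose centred signals ran closest to the members' mean profile over 12 arrays were Cd248, Inka1, Rab39b, Aif1l and Slc27a2, with root mean square differences of 0.23 to 0.25 log2 units on a profile that spans 2.36. That profile peaks in XX E11.5 pool 2, so genes chosen for likeness to it peak there by the choice. Cd248, a surface glycoprotein of stromal cells and pericytes, read 9.28 in that pool and 7.37 to 8.25 elsewhere. Over the 11 arrays without XX E11.5 pool 2, the 5 nearest were Arhgap45, Lage3, Spint1, Atp5d and Washc2, at 0.17 to 0.18 on a profile that spans 1.16. All 5 were highest in XX E12.5 pool 2 or 3. Both profiles include Acta2. Over the 8 members without Acta2, the highest mean deviation of those 11 arrays was in XY E12.5 pool 2, 0.35, against 0.28 in XX E12.5 pool 3. The part of Acta2 in this likeness was not tested. How the first 5 rank over those 11 arrays was not tested.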

How the data were processed

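Per the labels' protocols, RNA of the 12 pools was extracted (PicoPure), underwent 2 rounds of TargetAmp amplification and carried a biotin label. The authors deposited 1 table with a log2 value per probe set and array. How probes were summarised and normalized, and the base of the logarithm, taken as 2, is not given in the sources used here. Of 45037 probe sets, 798 were blank on every array, 1 on some, and 44238 were tested; 34328 had 1 gene symbol, 850 had several and were not named, and 9060 had none. Symbols were updated with the RefSeq table of GRCm38.p6, which matched 34126 probe sets through Entrez identifiers. No column lay outside the 12 samples.

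For each probe set, limma 3.58.1 under R 4.3.3 estimated the 4 group means (lmFit, then eBayes, 8 residual and 2.11 prior degrees of freedom) on all 12 arrays, with 2-sided Benjamini-Hochberg adjusted p under 0.05 over all probe sets. The fit was tested on simulated data. Every printed p comes from limma. Folds are 2 raised to the log2 difference. A gene's brightest probe set has the highest mean over 12 arrays. With 3 arrays per group, their number limits the precision. Amplification in 2 rounds and signals near background compress or distort differences, and probe sets of 1 gene can differ.

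The members and lists were chosen with earlier results of these data known. The text names every member probe set, up to 4 called genes per comparison by smallest p in the lists of regulators, matrix, contractile and protein family genes, defining markers of other cells, and the 5 probe sets of other genes nearest to the members' mean centred profile. Genes named beyond this rule, besides those the text marks, are neighbours of members, Tpm1 and the uncalled Actg2, Cnn1, Tagln and Des, which were named after their values were seen, and genes with a difference between the sex differences. Pool numbers are shared between groups, but deviations of same-numbered pools correlated at -0.40 to 0.23, over 0.1 in 4 of 18 pairs, so the numbers were not taken to pair pools. Alternatives were quantile normalization, the compared arrays alone, a filter to probe sets above the median brightness, a replicate block by pool number, array quality weights, averaging the probe sets of each gene, and leaving out each pool in turn. Figures were drawn with matplotlib 3.10.9.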

Additional observations from a re-analysis of the deposited data

Results flagged for a closer look

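A difference between the sex differences of E12.5 and E11.5 passed the threshold at 1 of 24 member probe sets and 10 probe sets of related lists, where 1.75% of all did. The 10 were 3 of 42 probe sets of interstitial regulators, 1 of 17 of other small leucine-rich proteoglycans, 3 of 27 of fibrous matrix and 3 of 34 of smooth muscle and pericyte. The bHLH and Maf family lists had 0 of 21 and 0 of 11. Values are the XY minus XX difference at E12.5 less that at E11.5, from limma over all 12 arrays. For Acta2 1416454_s_at it was -2.78 (adjusted p = 0.018). Among contractile genes it was -4.64 for Myl9, 2.58 for Mcam and 2.37 for Mylk. Among matrix genes it was 4.83 for Epyc, whose lower group lies in the non-target range, 3.26 for Vcan 1427257_at, and -1.37 and -2.02 for Col6a2 at 1426947_x_at and 1452250_a_at. Among regulators it was -2.70 for Prrx2, 2.14 for Ptch1 and 3.93 for Zeb2 1456389_at, a repressor of epithelial genes. Without XX E11.5 pool 2, Mylk (2.05, adjusted p = 0.053), Ptch1 (1.86, adjusted p = 0.058) and Col6a2 1426947_x_at (-1.38, adjusted p = 0.071) no longer passed, and Zeb2 gave 3.32 (adjusted p = 0.049).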

How the results depend on the processing

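Acta2 at E12.5 passed in 17 of 17 alternatives. Over all probe sets, calls for sex at E11.5 numbered 12 with the compared arrays alone, against 30. With array quality weights, 5794 were called for sex at E12.5, against 3416, and 2405 for day in XX, against 1378, where the compared arrays alone gave 624. Member calls for sex at E12.5 were 3 with array weights and 3 with the compared arrays alone, in each case Acta2 and the Maf probe sets 1447849_s_at and 1435828_at. For day in XX they were 2 with weights and 0 with the compared arrays alone, and for day in XY 0 with the compared arrays alone. With the pool number as a replicate block, member calls for day in XX were 0 (Maf 1456060_at, adjusted p = 0.052), and the block changed no other member call. Array weights turned the sign of Lum for sex at E12.5 (-0.01), Twist2 for day in XX (0.00) and Ogn for day in XY (-0.00). Leaving out each pool in turn, calls over all probe sets ran from 23 to 57 for sex at E11.5, 2054 to 3765 for sex at E12.5, 183 to 1945 for day in XX, 1277 to 3077 for day in XY and 403 to 1273 for the difference between the sex differences. Member calls then ran from 0 to 2, 0 to 1 and 0 to 1 for day in XX, day in XY and that difference, and the members' median for sex at E11.5 from -1.33 to 0.05. Signs turned at uncalled probe sets only. For sex at E11.5 these were Tcf21 (-1.78 to 0.05), Twist1 (-1.09 to 0.27), Ogn (-0.22 to 0.04), Prrx1 (-1.99 to 0.18), Maf 1447849_s_at (-1.44 to 0.01), Twist2 (-0.54 to 0.07) and Dcn (-1.33 to 0.05). For sex at E12.5 they were Lum (-0.08 to 0.26) and Prrx1 (-0.51 to 0.50). For day in XX they were Tcf21 (-1.69 to 0.14), Twist1 (-1.31 to 0.05), Twist2 (-0.47 to 0.14) and Dcn (-0.47 to 0.91). For day in XY they were Ogn (-0.11 to 0.15), Prrx1 (-0.71 to 0.36), Maf 1447849_s_at (-1.05 to 0.40) and Dcn (-0.18 to 0.31). For the difference they were Prrx1 (-0.23 to 1.95) and Dcn (-0.83 to 0.55). The cause was not tested in any of these. That difference uses all arrays, so the compared arrays alone gave no value for it, and the filter to brighter probe sets gave no members' median where a member dropped out. Signals near the non-target range limit Ogn and the flat probe sets.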
